A study of Caenorhabditis elegans with 2 samples.

Results

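The nuclear tRNA genes on the autosomes of Caenorhabditis elegans are described here as sites of the protein MADF-5. They are all genes of biotype tRNA on the 5 autosomes in the Ensembl annotation of the WBcel235 assembly, 336 of 31563 annotated genes when piRNA genes are left out. Genes on the X chromosome (276) and the mitochondrial ones are not among them. All 336 stood at identical coordinates in the RefSeq annotation, which gave the amino acid carried (the isotype) for 334 and left it undetermined for DY3.t2 and C08E8.t3.

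MADF-5 belongs to the proteins that carry a MADF domain, which binds DNA and resembles the Myb/SANT fold. It was mapped by chromatin immunoprecipitation and sequencing in whole L4 larvae of 1 genotype, collected at 50 hours after starvation at the L1 stage that followed bleaching. Strain OP436 carries wgIs436, a fosmid transgene of C01G12.1 fused to TY1, EGFP and 3xFLAG with unc-119(+), and the allele unc-119(tm4063). All animals shared this genotype, so the protein mapped is the tagged transgenic one. Whole animals mix their tissues, and which of them express the transgene was not examined here. Chromatin was sonicated to fragments of 200 to 800 bp and precipitated with an antibody against GFP. The 2 biological replicates form 1 group, no condition was compared with another, and the control library was not analysed here.

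A tRNA gene is transcribed by RNA polymerase III from a promoter inside the gene. The factor TFIIIC recognises an A box near the start and a B box further in, recruits TFIIIB upstream of the start, and the polymerase stops at a run of T on the coding strand just after the gene. Many tRNA genes exist as identical copies scattered over the chromosomes, so the gene sequence of 1 copy alone does not say which copy a short read came from.

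The sequences below show those shared units, since families of identical copies hold both bound and unbound genes. Each stands for all identical copies of its family and was read 5′ to 3′ from the WBcel235 (ce11) assembly, and the capitals mark a match to the A box consensus and, further in, to GTTCNANNC, a relaxed form of the B box.
tRNA-Thr Y39A1A.t1 (chrIII:10624742-10624813, minus strand): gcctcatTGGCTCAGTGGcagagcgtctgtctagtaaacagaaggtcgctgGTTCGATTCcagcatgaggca
tRNA-Lys T23F1.t1 (chrV:15465086-15465158, plus strand): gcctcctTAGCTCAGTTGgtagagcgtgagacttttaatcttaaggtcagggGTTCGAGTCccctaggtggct
tRNA-Pro T23F1.t2 (chrV:15465225-15465296, minus strand): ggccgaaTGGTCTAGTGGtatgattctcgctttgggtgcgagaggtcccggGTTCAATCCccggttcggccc
tRNA-Ala Y65A5A.t1 (chrIV:16398384-16398455, plus strand): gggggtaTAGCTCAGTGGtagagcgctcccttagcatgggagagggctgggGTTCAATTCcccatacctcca
tRNA-Phe Y66D12A.t1 (chrIII:11554825-11554897, plus strand): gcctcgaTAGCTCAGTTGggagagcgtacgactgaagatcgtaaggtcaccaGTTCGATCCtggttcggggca
tRNA-Gln C06E4.t1 (chrIV:7275327-7275398, plus strand): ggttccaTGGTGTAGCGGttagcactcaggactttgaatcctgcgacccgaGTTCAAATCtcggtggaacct
The tRNA-Thr, tRNA-Lys and tRNA-Ala genes are strongly bound ones, and the tRNA-Pro gene shares the peak of the tRNA-Lys gene beside it. The tRNA-Phe and tRNA-Gln sequences come from families that were seldom or never bound. The tRNA-Phe family had 1 of 5 autosomal copies bound, at Y66D12A.t1 itself. The tRNA-Gln family had 0 of 5 measured autosomal copies bound, and C06E4.t1, printed for its sequence, lay near no ranked peak. All 6 of these sequences hold both internal elements.

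A gene was called bound when its start lay within 500 bp of a summit of the conservative list of 813 peaks made from both replicates, and shares were taken over genes that had any summit of the ranked list in the same window, a list of 116935 peaks. These were 308 of the 336 genes. Of these 308 genes, 154 were bound (50.0%, Wilson 95% interval 44.5 to 55.5), against 3.82% of all 25103 genes with such a ranked summit and 2.74% of the 24535 that are not tRNA genes. The share on X, 134 of 260 (51.5%, 45.5 to 57.5), lay inside the interval of the autosomal share in this list. Intervals cover counting error only, and neighbouring genes share peaks and copies share sequence, so genes are not independent of each other and no test was made on them.

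Each replicate's own thresholded list held fewer of them. In replicate 1, 67 of the 308 genes were bound (21.8%, 17.5 to 26.7), against 2.04% of all genes in that list. In replicate 2, 44 were bound (14.3%, 10.8 to 18.6), against 1.16% of all genes. In the own lists the share was lower on the autosomes than on X, where it was 80 of 260 in replicate 1 (25.5 to 36.6%) and 52 of 260 in replicate 2 (15.6 to 25.3%), both above the upper limits of the autosomal intervals, which overlap those on X. The other list made from both replicates gave 142 (46.1%), against 3.78% of all genes. Both replicates thus had tRNA genes far above the share of all genes, and replicate 2, with 254 peaks against 411 in replicate 1, had the fewest.

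The 154 bound genes divided unevenly by replicate. In the own lists, 23 were bound in both replicates, 38 in replicate 1 alone, 20 in replicate 2 alone and 73 in neither, so the call for the last group rests on the list made from both. Of the bound genes, 140 (90.9%) had a ranked peak within 100 bp of the middle of the gene, and 127 had one in each replicate. In replicate 1, 131 of the bound genes had such a peak at or above the 95th percentile of signal within its ranked list, and in replicate 2 there were 132. Both held for 77.3% of bound genes and for 1.65% (3 of 182) of unbound genes. The bound call itself uses both replicates, so this difference is largely built into the call. Of the 182 unbound genes, only 86 had a ranked peak near the gene middle in each replicate.

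**Figure D1:**
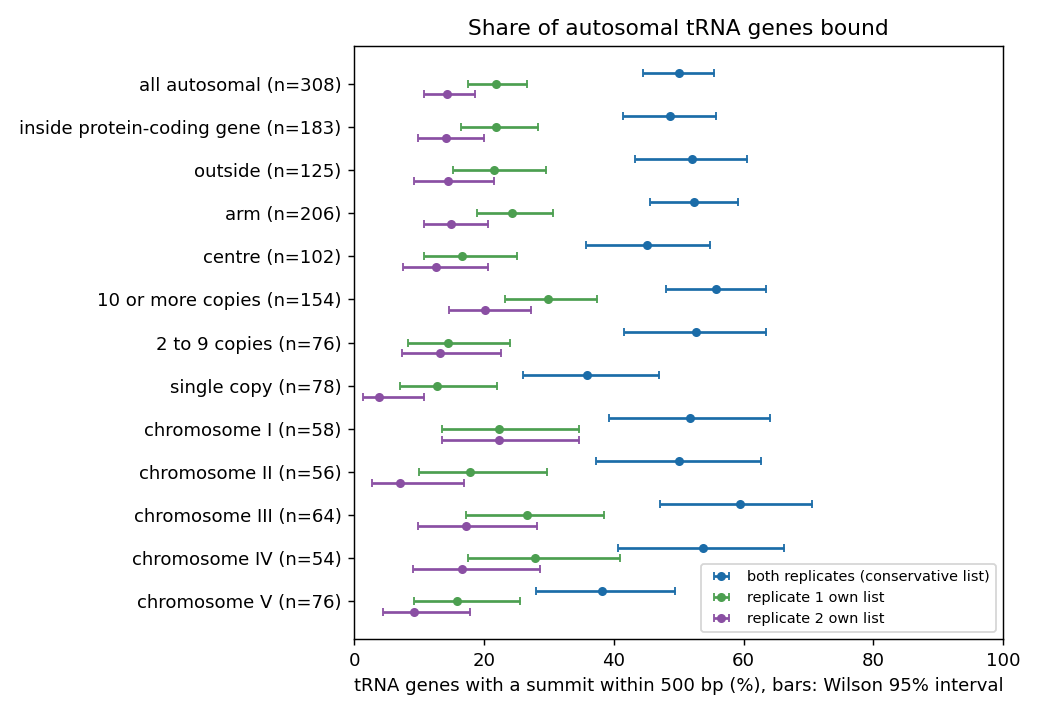
Share of autosomal tRNA genes bound (percent, horizontal axis) for all genes and for classes of gene (rows, with the number of genes), in the conservative list of both replicates and in each replicate's own list; points are shares and bars are Wilson 95% intervals. All measured autosomal tRNA genes together stand at 50.0%, 21.8% and 14.3%, and single-copy ones at 35.9%, 12.8% and 3.85%.

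The bound genes lay at 137 distinct peaks, 16.9% of the 813. At 17 of these peaks 2 genes shared the peak, which covers 34 genes. The authors' signal of each peak is a value from their peak caller on a scale that is not stated, and it is used here to order peaks within a list. The median signal was 77.7 at the 137 tRNA gene peaks and 75.0 at the other 676 peaks. Autosomal tRNA genes held 1 of the 25 strongest peaks and 8 of the 100 strongest, while tRNA genes on X, with 112 peaks, held 2 and 16. Among bound genes the median signal was 78.0 on the autosomes and 83.1 on X.

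The strongest of these peaks lay at F52C9.t1, a tRNA-Thr gene inside F52C9.5 on III (5305905-5305976), with a signal of 158.8 in the conservative list. Its ranked peak had a signal of 71.5 in replicate 1 and 86.3 in replicate 2, above 99.8% and 99.9% of the peaks of each list. It ranked 25 among the 813 peaks. Y82E9BR.t1, a tRNA-Gly gene on III (1424491-1424562), followed with 150.8, and with 77.8 in replicate 1 and 71.0 in replicate 2. Both genes were bound in the own list of each replicate.

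T23F1.t1 (tRNA-Lys) and T23F1.t2 (tRNA-Pro), whose sequences are printed above, face each other within 1 peak on V. The peak had a signal of 142.9, and its ranked signal at T23F1.t1 was 75.3 in replicate 1 and 65.2 in replicate 2. The summit lay 51 bp past the start of T23F1.t1 and 159 bp past that of T23F1.t2, so it was nearer to T23F1.t1. Y39A1A.t1, a tRNA-Thr gene inside hpr-9 (the gene of a subunit of the 9-1-1 DNA damage clamp) on the opposite strand, had 140.3, with 81.3 in replicate 1 and 61.3 in replicate 2.

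F53F8.t1 (tRNA-Cys, V) had a signal of 130.4, with 70.2 in replicate 1 and 52.5 in replicate 2. F35H8.t1 (tRNA-Arg, II) had 129.0, with 53.5 in replicate 1 and 75.0 in replicate 2. T21B4.t1 (tRNA-Ile, II), inside the cuticle collagen gene col-85, had 122.8, with 78.2 in replicate 1 and 47.5 in replicate 2. The order of the 2 replicates' values differed between these genes, and T21B4.t1 stood in the own list of replicate 1 only. B0523.t1, a tRNA-Trp gene inside fli-1 (a gelsolin-family gene), had 113.1, with 49.1 in replicate 1 and 61.9 in replicate 2.

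Of the 20 strongest peaks at autosomal tRNA genes, which reached down to a signal of 103.5, 13 were in the own lists of both replicates, 6 in that of replicate 1 only and 1 (F22G12.t1, tRNA-Val, 119.1) in that of replicate 2 only. They held 24 genes, 15 of them inside protein-coding genes. The hosts included brd-1 (the BARD1 ortholog, with the tRNA-Gly pair K04C2.t1 and K04C2.t2 at 112.5), mdf-2 (the spindle checkpoint gene of the Mad2 family, with the tRNA-Glu gene Y69A2AR.t2 at 109.2), spe-15 (a myosin gene, with the tRNA-Arg gene F47G6.t1 at 105.3) and osm-9 (a TRPV channel gene, with the tRNA-Pro gene B0212.t1 at 103.5). Genes of tRNA-Gly made up 8 of the 24, and 18 belonged to families of 10 or more identical copies.

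Further genes at these peaks carried several amino acids. F56F3.t1 (tRNA-Arg) had a signal of 115.1, Y43D4A.t2 (tRNA-Gly) 114.1, Y65A5A.t4 (tRNA-His) 112.6, W02G9.t1 (tRNA-Thr, inside ndx-2) 106.5, the pair C12C8.t2 and C12C8.t5 (tRNA-Gly) 104.8 and C35E7.t1 (tRNA-Asp) 104.5. The 5 weakest peaks at bound genes were those of Y57A10B.t1 (tRNA-Ile, 51.0), F28F8.t4 (tRNA-Ser, 52.8), K04A8.t3 (tRNA-Cys, inside the potassium channel gene twk-10, 53.2), F15B9.t1 (tRNA-Ala, 54.7) and K12H4.t1 (tRNA-Pro, inside the homeobox gene pros-1, 55.8). Of these, F15B9.t1 alone was bound in an own list, that of replicate 2.

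Most summits lay on the tRNA genes or close to their starts. The median summit was 14.5 bp past the gene start (interquartile range -9.75 to 43.0 bp), in genes of a median length of 72 bp and peaks of a median width of 224 bp. Of the 154 bound genes, 91 (59.1%) had the summit inside the gene, 49 had it upstream of the start and 14 past the end. The summit was within 100 bp of the start for 138. For 12 of the other 16 the summit was nearer to the start of another tRNA gene.

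The distance limit decided few calls. Just inside 500 bp lay T05A8.t2 (tRNA-Leu), 455 bp from a summit of signal 63.4, and M01E10.t1 (tRNA-Glu), 429 bp from the summit of its neighbour M01E10.t2, whose signal was 103.3. Just outside lay T28D6.t2 (tRNA-Val) at 583 bp and Y43F4A.t1 (tRNA-Tyr) at 601 bp.

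**Figure D2:**
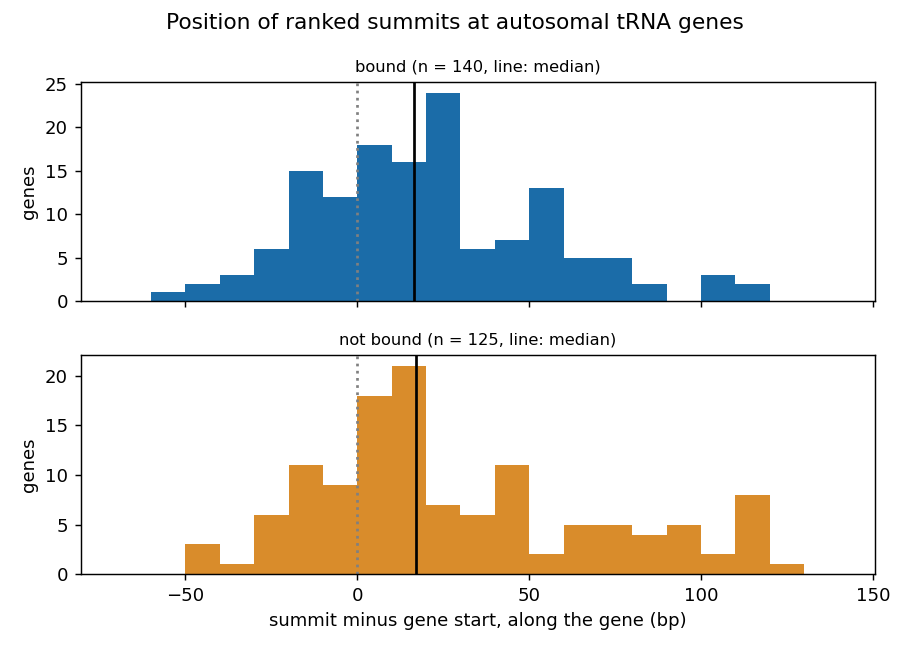
Number of autosomal tRNA genes (vertical axis) by the position of the summit of their strongest ranked peak relative to the gene start (bp along the gene, horizontal axis), for bound genes above and unbound genes below; solid lines mark medians and dotted lines the gene start. The medians are 16.5 bp for 140 bound genes and 17.0 bp for 125 unbound genes. Only peaks with a summit within 100 bp of the gene middle are shown.

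Being unbound did not mean that no peak was listed. Of the 182 unbound genes, 125 (68.7%) had a ranked peak within 100 bp of the gene middle, against 27.9% of the 25331 other autosomal genes at the same distance past the start. The limit of 100 bp confines the summits of bound and unbound genes alike, so similar positions are partly set by it. Within that limit, the ranked peaks had a median summit 16.5 bp past the start for bound and 17.0 bp for unbound genes. Their median signal was 77.3 at bound and 41.9 at unbound genes, beside 20.4 for all ranked peaks. The median percentile of signal among all ranked peaks was 99.6 at bound and 95.3 at unbound genes.

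The bound and unbound genes overlapped in signal. Of the unbound genes, 31 had a ranked signal above 51.0, the lowest signal of a conservative peak at a bound gene. Above the median of those conservative peaks over bound genes, 78.0, were 2 unbound genes. These limits come from peaks up to 500 bp from the start. By the ranked peak within 100 bp of the gene middle, bound genes went down to 38.5, below the unbound median of 41.9. B0244.t2 (tRNA-Leu, III) had the highest, 80.3, with a score of 821 where the lowest score in the conservative list was 830. Its signal was 52.4 in replicate 1 and 24.0 in replicate 2, at the 99.6th and 91.2nd percentile. C37A2.t1 (tRNA-Cys, inside the cyclin E gene cye-1) had 79.2, with 55.8 in replicate 1 and 20.6 in replicate 2. Both had a high value in replicate 1 and a lower percentile in replicate 2, and both were bound in the own list of replicate 1.

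Y105C5B.t4 (tRNA-Asp) was the reverse case, with 12.9 in replicate 1 and 56.7 in replicate 2, at the 43.2nd and 99.7th percentile. Of the 182 unbound genes, 14 had a score of 700 or more but below 830, 12 were bound in the other list made from both replicates, 7 in the own list of replicate 1 and 2 in that of replicate 2. The remaining 167 were bound in none of these lists.

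Across genes, the signals of the ranked peaks in replicate 1 and replicate 2 had a Spearman correlation of 0.57 over 213 autosomal tRNA genes with a peak in both. It was 0.297 over the 127 bound genes and 0.0243 over the 86 unbound genes. These are correlations across genes, which share the libraries and their unknown depth, and genes are not replicates. The bound call itself uses both replicates, so the difference between bound and unbound genes in these values is a description.

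**Figure D3:**
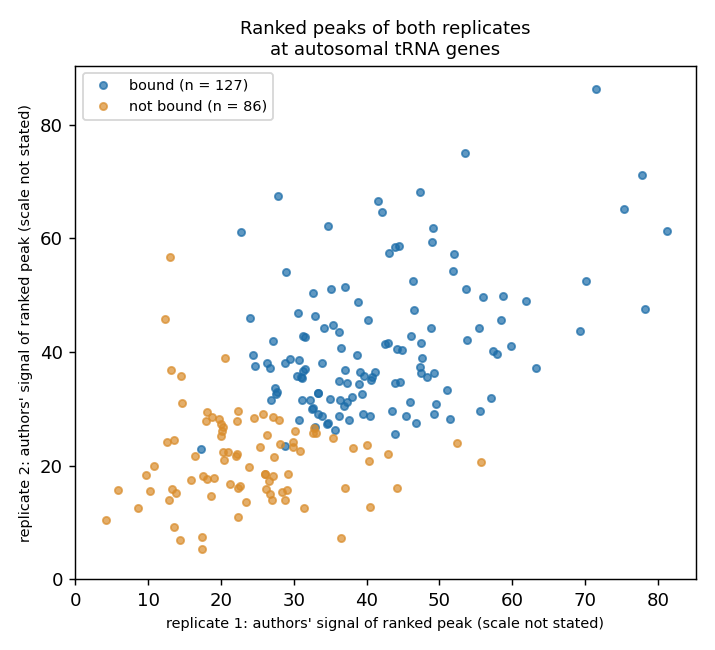
Authors' signal of the ranked peak at each autosomal tRNA gene in replicate 1 (horizontal axis) and replicate 2 (vertical axis), scale not stated; each point is 1 gene with a peak within 100 bp of its middle in both replicates. Bound genes (127) lie mostly higher on both axes than unbound genes (86), with a Spearman correlation of 0.57 over all 213.

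**Figure D4:**
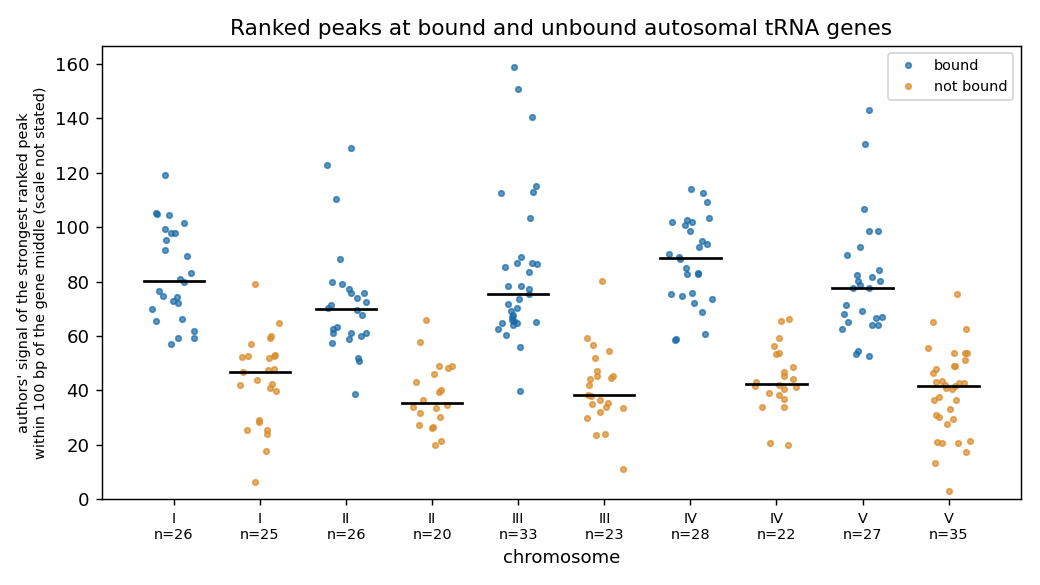
Authors' signal (vertical axis, scale not stated) of the strongest ranked peak within 100 bp of the middle of each autosomal tRNA gene, by chromosome and by whether the gene was bound; points are genes and horizontal lines medians. Bound genes have a median of 77.3 and unbound genes 41.9 over the 5 autosomes, and the sets overlap.

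By chromosome, the share was highest on III and lowest on V. It was 38 of 64 genes on III (59.4%, 47.1 to 70.5), 29 of 54 on IV (53.7%), 30 of 58 on I (51.7%), 28 of 56 on II (50.0%) and 29 of 76 on V (38.2%, 28.1 to 49.4). The intervals of III and V overlap, and each chromosome's interval overlaps that of its neighbours in this order. In the own lists V was lowest in replicate 1, with 15.8%, while II was lowest in replicate 2, with 7.14% against 9.21% on V. On III, 24 of 34 genes on the arms were bound in the conservative list (70.6%) and 14 of 30 in the centre (46.7%). Replicate 1 had the reverse order on III, with 8 of 34 on the arms and 9 of 30 in the centre. Replicate 2 had 7 of 34 on the arms and 4 of 30 in the centre.

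Genes on chromosome arms were bound somewhat more often than genes in the centre, the middle one of 3 equal parts of a chromosome. The counts were 108 of 206 on arms (52.4%, 45.6 to 59.1) and 46 of 102 in centres (45.1%, 35.8 to 54.8), and the intervals overlap. In replicate 1 the shares were 24.3% on arms and 16.7% in centres, and in replicate 2 they were 15.0% on arms and 12.7% in centres. Not every chromosome had that order. In the conservative list, the share on II was 48.7% on arms and 52.9% in the centre. On V it was 37.7% on arms and 39.1% in the centre, and on X 50.6% on arms and 52.9% in the centre. In replicate 1 arms stood higher on II (8 of 39 against 2 of 17) and on V (11 of 53 against 1 of 23). Replicate 2 had 2 of 39 on arms and 2 of 17 in the centre on II. On V it had 5 of 53 on arms and 2 of 23 in the centre.

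Lying inside a protein-coding gene went with no clear difference. Of the 336 genes, 194 lay whole within the span of a protein-coding gene on either strand. Of those measured, 89 of 183 inside were bound (48.6%, 41.5 to 55.8) and 65 of 125 outside (52.0%, 43.3 to 60.6). The own lists gave 21.9% inside and 21.6% outside in replicate 1, and 14.2% inside and 14.4% outside in replicate 2. The share was 46.0% (52 of 113) for genes on the same strand as their host and 52.2% (36 of 69) for genes on the opposite strand. The median signal of bound genes was 78.2 inside and 77.2 outside.

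Chromosomes differed in that order too. On II, 11 of 30 genes inside were bound (36.7%) and 17 of 26 outside (65.4%), while on IV it was 18 of 30 inside (60.0%) and 11 of 24 outside (45.8%). In the own lists II kept its order, with 3 of 30 inside and 7 of 26 outside in replicate 1. In replicate 2 it had 0 of 30 inside and 4 of 26 outside. IV had 8 of 30 inside and 7 of 24 outside in replicate 1, the reverse order, and 7 of 30 and 2 of 24 in replicate 2. Only 6 genes overlapped an exon of the host, and 5 of these were bound, against 84 of the other 177 inside. Genes with a protein-coding start within 500 bp were bound in 43 of 89 cases (48.3%), and those with none in 111 of 219 (50.7%). Genes that overlapped an annotated ncRNA gene were bound in 100 of 183 cases (54.6%, 47.4 to 61.7), and the others in 54 of 125 (43.2%, 34.8 to 52.0). The own lists did not share that gap. Replicate 1 gave 21.3% with such an overlap and 22.4% without, and replicate 2 gave 15.3% with and 12.8% without.

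The number of identical copies separated the genes more. Copies were counted over all 612 nuclear tRNA genes, X included. Genes with 10 or more identical copies were bound in 86 of 154 cases (55.8%, 48.0 to 63.4), those with 2 to 9 in 40 of 76 (52.6%, 41.6 to 63.5), and single-copy genes in 28 of 78 (35.9%, 26.1 to 47.0). Replicate 1 gave 29.9%, 14.5% and 12.8% in that order of copy number, and replicate 2 gave 20.1%, 13.2% and 3.85%. The intervals of the most and least copied classes do not overlap in any of the 3 lists. With each summit counted for its nearest tRNA gene only, the shares were 46.8% with 10 or more copies and 35.9% with a single copy, whose interval reaches 47.0%, so they overlap under that counting.

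In the conservative list the gap by copy number was smaller among genes with all the promoter elements searched. Genes that hold the A box consensus, the relaxed B box and a run of 4 T after their end were bound in 149 of 282 cases (52.8%, 47.0 to 58.6), and those that lack any of them in 5 of 26 (19.2%, 8.51 to 37.9). All 154 genes with 10 or more copies hold them, and so do 61 of the 78 single-copy genes. Among genes with all elements the shares were 55.8% with 10 or more copies, 55.2% (37 of 67) with 2 to 9 and 42.6% (26 of 61, 31.0 to 55.1) with a single copy. The own lists changed little. Among the same genes replicate 1 gave 29.9% with 10 or more copies and 14.8% with a single copy. Replicate 2 gave 20.1% and 4.92%. Whether the elements account for any of the gap was not tested. With the limit at 100 bp in place of 500 bp, the shares were 57.3% with 10 or more copies and 47.3% with a single copy. On X the shares were 52.8% with 10 or more copies and 46.2% with a single copy.

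Copy number also bears on how reads are placed. A read that falls wholly inside a gene with identical copies fits each of them, and how the authors placed such reads is not given in the sources used here. Its part in these shares was not tested. Among measured genes a ranked peak lay within 100 bp of the middle in 87.0% of genes with 10 or more copies and in 78.2% of single-copy genes. The median signal of bound genes was 83.2 with 10 or more copies and 71.2 with a single copy. Of the single-copy genes, 1 was among the 24 at the 20 strongest peaks, Y69A2AR.t2 in mdf-2.

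Families of identical sequence differed widely from each other. The 336 genes had 137 distinct sequences, and 51 of these were multi-copy families with an autosomal member. Of the 51, 35 had both bound and unbound autosomal genes, 4 had all measured genes bound and 8 had none. The most bound of the larger families were a tRNA-Glu family (7 of 8), a tRNA-Gly family (13 of 15) and a tRNA-Lys family (13 of 15), which have 20, 29 and 25 copies in the genome. Some bound tRNA-Gly copies, such as C12C8.t2 and C12C8.t5, shared 1 peak. A ranked peak lay within 100 bp of the gene middle for 9 of the 13 bound tRNA-Gly genes. It did so for all 13 bound tRNA-Lys and all 7 bound tRNA-Glu genes. The tRNA-Gly family included Y82E9BR.t1 and Y43D4A.t2 among bound genes and C12C8.t3 and C12C8.t4 among unbound ones.

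At the other end stood a tRNA-Asn family with 2 of 13 autosomal copies bound (15.4%, 4.33 to 42.2) and the tRNA-Gln family printed above with 0 of 5. The bound tRNA-Asn genes were W06D4.t1, inside hgo-1 (the homogentisate oxidase gene), with a signal of 76.6, and Y43F4A.t2 with 71.9. Neither was in the own list of a replicate, although the ranked peak of W06D4.t1 had 41.2 in replicate 1 and 36.5 in replicate 2. The 11 unbound copies included 9 with a ranked peak, of signal 13.3 to 62.6 and a median of 43.4. All 5 tRNA-Gln copies had a ranked peak, of signal 19.9 to 36.8, below the lowest signal of the conservative peaks at bound genes.

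The order of families was not the same on X. The tRNA-Asn family had 3 of 5 copies bound on X and the tRNA-Gln family 4 of 8. The tRNA-Glu family with 7 of 8 bound on the autosomes had 4 of 10 bound on X, and the tRNA-Thr family of Y39A1A.t1 had 5 of 8 on the autosomes and 1 of 7 on X. Over the 20 families with at least 4 measured genes in each place, the Spearman correlation of the shares on autosomes and on X was -0.172. These shares rest on 4 to 15 genes each and on the same libraries, and each point in the comparison is a family whose copies share the gene sequence, so the value is a description.

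By isotype, the autosomal shares ran as high as 5 of 6 for tRNA-Cys, followed by 13 of 18 for tRNA-Glu (72.2%), 19 of 28 for tRNA-Gly (67.9%), 12 of 18 for tRNA-Ala (66.7%), 11 of 17 for tRNA-Arg (64.7%) and 18 of 28 for tRNA-Lys (64.3%). They were lowest for tRNA-His (1 of 10), tRNA-Asn (2 of 14), tRNA-Gln (2 of 9) and tRNA-Phe (2 of 8). The intervals of tRNA-His (1.79 to 40.4%) and tRNA-Asn (4.01 to 39.9%) do not overlap those of the 6 most bound isotypes, whose lower limits are 41.3 to 49.3%. The intervals of tRNA-Gln and tRNA-Phe do. These intervals are those of the conservative list, and the own lists did not keep the separation. In replicate 1 the tRNA-His interval (1.79 to 40.4%) overlapped those of all 6. Only tRNA-Gly (26.5 to 60.9%) stood clear of tRNA-Asn (0.0 to 21.5%) there. In replicate 2 the intervals of tRNA-His (0.0 to 27.8%) and tRNA-Asn (0.0 to 21.5%) overlapped those of all 6. In replicate 1, tRNA-Ala had 1 of 18 bound, tRNA-His 1 of 10 and tRNA-Asn 0 of 14. The others of the 6 had 3 of 6 (tRNA-Cys), 4 of 18 (tRNA-Glu), 12 of 28 (tRNA-Gly), 4 of 17 (tRNA-Arg) and 9 of 28 (tRNA-Lys). In replicate 2, tRNA-Ala had 3 of 18, tRNA-His 0 of 10 and tRNA-Asn 0 of 14. There the others had 2 of 6 (tRNA-Cys), 6 of 18 (tRNA-Glu), 9 of 28 (tRNA-Gly), 5 of 17 (tRNA-Arg) and 4 of 28 (tRNA-Lys). The single bound tRNA-His gene was the strongly bound Y65A5A.t4. Other copies of its sequence, W09G10.t1 and Y7A9D.t1, had ranked peaks of signal 43.0 each and were unbound.

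**Figure D5:**
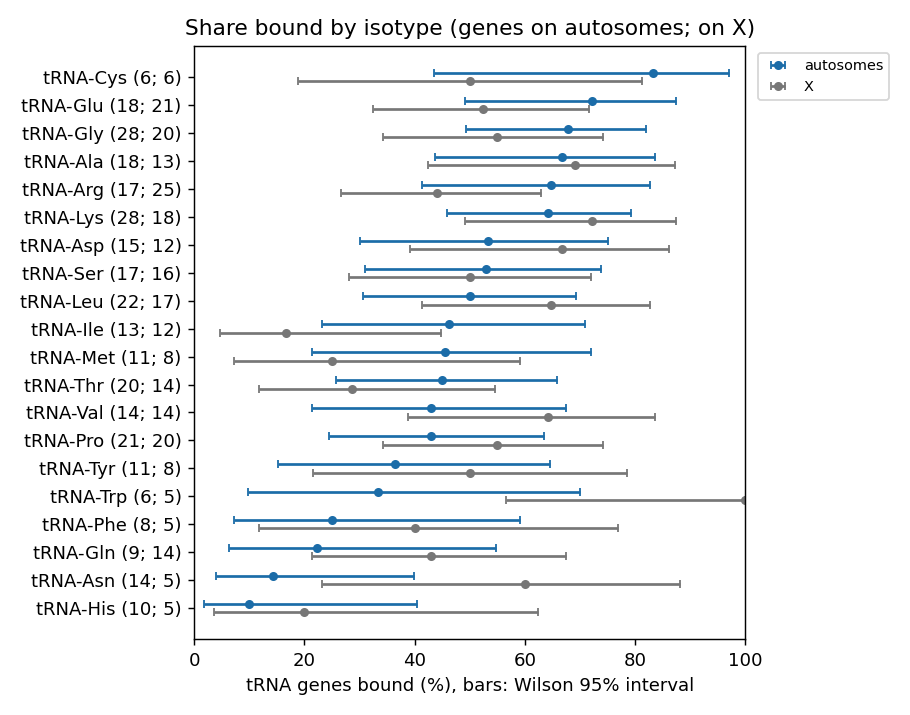
Share of tRNA genes bound (percent, horizontal axis) for each isotype with at least 5 measured genes on the autosomes and on X (rows, numbers of genes in brackets); points are shares and bars Wilson 95% intervals. On the autosomes tRNA-Cys, tRNA-Glu and tRNA-Gly stand highest and tRNA-His and tRNA-Asn lowest, with wide intervals, and several isotypes change place on X.

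In the conservative list, genes with another tRNA gene close by were bound more often than lone genes, with intervals that overlap. A chain is a run of tRNA gene starts each within 1 kb of the next. Chains of 4 had 6 of 8 genes bound and chains of 3 had 8 of 15. Genes in pairs were bound in 43 of 72 cases (59.7%, 48.2 to 70.3), and genes with no such neighbour in 97 of 213 (45.5%, 39.0 to 52.2). Since a peak can fall within 500 bp of more than 1 gene of a chain, the chained genes have more chances to be called.

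The chain on IV that runs Y65A5A.t1, Y65A5A.t2, Y65A5A.t3 and Y65A5A.t4 (tRNA-Ala, tRNA-Ala, tRNA-Val and tRNA-His) had all 4 genes bound, at 4 separate peaks. Their signals were 100.9, 68.7, 98.6 and 112.6 in that order, and each summit lay 12 to 24 bp past its gene start. In replicate 1 the ranked signals were 43.0, 27.2, 55.5 and 69.2, and in replicate 2 they were 57.3, 41.9, 44.3 and 43.7. Each replicate's own list held 2 of the 4. So a separate summit stood on each gene of this chain.

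Other chains looked different. The 4 identical tRNA-Gly genes C12C8.t2 to C12C8.t5 had 2 genes bound at 1 shared peak. The 3 tRNA-Glu genes Y53C10A.t1 to Y53C10A.t3, of 1 sequence, were all bound, at 3 peaks of signal 66.2 to 99.5. The 3 genes K04C2.t1 to K04C2.t3 inside brd-1 were all bound at 2 peaks, and C17D12.t1 to C17D12.t3 had 1 bound (62.0), as had F08G5.t1 to F08G5.t3 (60.9). The chain of F49C5.t2, F49C5.t3 and F49C5.t4 (tRNA-Ala, tRNA-Leu and tRNA-Lys) had 0 of 3 bound in the conservative list and in both own lists.

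Nearly all autosomal tRNA genes hold the internal promoter elements, bound or not. The relaxed B box GTTCNANNC was in 149 of 154 bound genes (96.8%) and 144 of 154 measured unbound genes (93.5%), on the gene strand. It occurs in 5.38% of the 300 bp windows around the starts of the other 30915 genes and in 2.02% of their first 72 bp. The stricter GTTCGANTC was in 78 bound genes (50.6%) and 61 unbound genes (39.6%), against 0.469% of those windows, and every match to it is also a match to the relaxed form. TNGCNNAG, a form of the A box, was in 75 bound (48.7%) and 69 unbound genes (44.8%), against 13.4% of the windows.

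The A box consensus was in all 154 bound genes and in 145 of the 154 measured unbound genes (94.2%), against 8.34% of the windows. A run of 4 T within 30 bp after the gene end followed all 154 bound genes and 150 unbound genes (97.4%), against 45.0% of the other genes. The letters were searched on the strand of each gene only. None of these matches is evidence of a site in use, and their letters were chosen after the files had been seen.

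The measured genes without the A box consensus, or without a run of 4 T, were few and unbound, while 5 of the 15 without the relaxed B box were bound. The 9 measured genes with no match to the A box consensus were F27D4.t1, T04D3.t1, T13B5.t2, T10B9.t1, F49C5.t1, Y102E9.t1, K11H12.t1, K09C6.t1 and F21A3.t1. The 4 with no run of 4 T were Y95D11A.t1, ZK39.t1, W09G10.t3 and K09C6.t1. With 9 and 4 genes, the upper limits of the Wilson intervals of a share of 0 are 29.9% and 49.0%.

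K09C6.t1 and K11H12.t1 are printed because they differ in kind, with capitals marking the B box in its relaxed form, while neither form of the A box matched.
tRNA-Ala K09C6.t1 (chrV:857325-857396, plus strand): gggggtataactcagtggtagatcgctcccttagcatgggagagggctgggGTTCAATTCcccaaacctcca
tRNA-Sec K11H12.t1 (chrIV:658181-658266, plus strand): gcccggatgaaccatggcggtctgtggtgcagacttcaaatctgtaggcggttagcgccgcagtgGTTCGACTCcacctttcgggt
K09C6.t1 has the length of the tRNA-Ala gene Y65A5A.t1 and differs from it by 3 substitutions, G10A, G23T and T65A, with positions counted from 1 at the 5′ end of the gene and the base of Y65A5A.t1 first. The bound Y65A5A.t1 had a signal of 100.9, with 43.0 in replicate 1 and 57.3 in replicate 2, while the ranked peak of the unbound K09C6.t1 had 37.5, with 21.2 in replicate 1 and 16.7 in replicate 2. K11H12.t1 is the selenocysteine tRNA gene, whose promoter in vertebrates lies largely upstream of the gene. It was unbound, and its ranked peak had a signal of 34.1, with 13.5 in replicate 1 and 24.5 in replicate 2.

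Copies of 1 sequence that differed in binding differ only outside the gene. The pairs below give the gene in capitals with 50 bp before and 30 bp after it in lower case, a bound copy first.
tRNA-Thr Y39A1A.t1 (chrIII:10624712-10624863, minus strand): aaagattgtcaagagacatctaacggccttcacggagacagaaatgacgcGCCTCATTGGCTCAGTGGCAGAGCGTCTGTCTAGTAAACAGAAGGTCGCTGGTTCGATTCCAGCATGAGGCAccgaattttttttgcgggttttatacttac
tRNA-Thr F11H8.t1 (chrIII:7030527-7030678, minus strand): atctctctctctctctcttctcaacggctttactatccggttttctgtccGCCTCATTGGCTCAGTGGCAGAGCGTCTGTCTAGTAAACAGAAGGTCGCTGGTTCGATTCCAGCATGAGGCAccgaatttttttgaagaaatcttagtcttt
tRNA-Ala Y65A5A.t1 (chrIV:16398334-16398485, plus strand): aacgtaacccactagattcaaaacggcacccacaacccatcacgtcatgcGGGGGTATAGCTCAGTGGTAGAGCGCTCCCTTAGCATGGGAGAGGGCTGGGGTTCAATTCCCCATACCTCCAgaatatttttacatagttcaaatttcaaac
tRNA-Ala M03A1.t1 (chrII:4565339-4565490, plus strand): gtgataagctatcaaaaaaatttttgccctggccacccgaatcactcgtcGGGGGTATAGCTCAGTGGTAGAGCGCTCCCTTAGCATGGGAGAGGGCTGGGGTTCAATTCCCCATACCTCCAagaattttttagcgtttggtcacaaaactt
Y39A1A.t1 had a ranked signal of 140.3, with 81.3 in replicate 1 and 61.3 in replicate 2, and F11H8.t1, not bound, had 44.4, with 22.2 in replicate 1 and 22.0 in replicate 2. Y65A5A.t1 had 100.9 in the list of both replicates, and M03A1.t1, not bound, had 26.2, with no ranked peak in replicate 1 and 20.3 in replicate 2. All 4 genes have a run of 4 or more T after their end. The letters inside the gene are the same within each pair.

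Base composition differed little. Over measured genes, the median GC content of the 50 bp upstream of the start was 46.0% (interquartile range 40.0 to 52.0) for bound and 43.0% (36.0 to 50.0) for unbound genes. Inside the gene the median was 58.3% for bound and 58.3% for unbound genes.

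Against the 50.0% of autosomal tRNA genes, annotated tRNA pseudogenes on the same chromosomes were bound in 7 of 158 cases (4.43%, 2.16 to 8.86), beside 3.82% of all genes. In the own lists the pseudogene share was 3.80% in each replicate, above the share of all genes and below that of tRNA genes in both. Small nucleolar RNA genes had 18.7% bound and protein-coding genes 1.83%. Among the protein-coding genes that make or use these transcripts, 0 of 6 measured genes of the RNA polymerase III machinery (of 8 listed) and 0 of 29 measured aminoacyl-tRNA synthetase genes (of 32 listed) were bound. No autosomal tRNA gene was found inside the 25 kb on either side of the genes that the transgene carries.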

How the data were processed

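The labels assign 2 biological replicates to 1 group. The authors deposited ranked and thresholded peak lists on ce11 for each replicate and for both together. The deposited score expresses the irreproducible discovery rate (IDR) of a peak, with 1000 as its ceiling, and the deposited signal is the value of the authors' peak caller, whose scale is not stated. The sources used here do not give the aligner, the caller, the treatment of reads with several matches or the depth of each library, so the depth behind each peak is unknown.

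Summits were the peak start plus the deposited offset. Genes came from Ensembl release 115 and isotypes from RefSeq, both on WBcel235, and sequence from the assembly. Genes within 500 bp of a conservative summit were called bound. Identical copies were counted by whole gene sequence, and the centre was the middle one of 3 equal parts of a chromosome. Shares carry Wilson 95% intervals for counting error, and no test was made. The calculations used Python 3.11.15, pandas 2.3.3, numpy 2.4.6, SciPy 1.17.1 and matplotlib 3.10.9, and the counting steps were tested on simulated data.

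The members, lists and rules were chosen with earlier results of these data known. Genes were named at the 20 strongest and 5 weakest member peaks, the 2 nearest to 500 bp on each side, up to 2 bound and 2 unbound genes for each family of 5 or more copies, and in chains of 3 or more starts within 1 kb. Not every item that this rule names is reported here. A clause on anticodons could not be applied, since anticodons were not used here. The strongest unbound genes, the genes that lack an element, the bound tRNA-His and tRNA-Asn genes and the sequences printed were named after their values were seen. Alternatives covered other windows, lists, denominators, counting of shared summits and definitions.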

Additional observations from a re-analysis of the deposited data

How the results depend on the processing

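Of 88 recomputed values, 62 stayed within a range around the main value and 26 did not. That range was the Wilson interval for shares. For signal and summit offset it was the interquartile range across genes, which is not the error of a median. Leaving out the transgene regions changed no share, since no autosomal tRNA gene lies in them. Without replicate 1 or 2 the share bound was 14.3% to 21.8% of the measured autosomal tRNA genes. With each replicate's own ranked peaks as the denominator, an alternative chosen after seeing the data, it was 15.0% to 23.1%. With the main denominator, leaving out a replicate gave 14.2% to 21.9% inside and 14.4% to 21.6% outside protein-coding genes. It gave 15.0% to 24.3% on arms and 12.7% to 16.7% in centres. By copy number it gave 20.1% to 29.9% with 10 or more copies and 3.85% to 12.8% with a single copy. With the 50% of peaks of highest signal the share bound was 28.6% of the measured autosomal tRNA genes. It was 29.5% inside and 27.2% outside, 31.6% on arms and 22.5% in centres, 37.0% with 10 or more copies and 14.1% with a single copy. These lists hold fewer peaks by construction. Counting each summit for its nearest tRNA gene gave 46.8% with 10 or more copies, a window of 100 bp gave 47.3% with a single copy, and the relaxed letters put the B box share at 96.8%.

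The order of classes was steadier than the shares. Arms stood above centres in 12 of 12 settings and 10 or more copies above single copies in 11 of 11, while genes inside protein-coding genes stood above those outside in 5 of 11. These counts include the main setting and the one without the transgene regions, which gave the same shares. No paired analysis was possible because the replicates form 1 group. Limits are the unknown depth and the unknown placement of reads from identical copies, which bear on each family.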

Other observations

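The 7 bound tRNA pseudogenes on the autosomes were D1046.t1, Y69A2AR.t3, Y94H6A.t1, F19H8.t1, C52E12.t1, K10B2.t1 and T08B2.t1. In the own list of replicate 1, 67 of 308 autosomal tRNA genes and 6 of 158 pseudogenes were bound. In that of replicate 2 it was 44 of 308 tRNA genes and 6 of 158 pseudogenes. On X, 1 of 20 measured tRNA pseudogenes was bound.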
